A study of Mus musculus with 9 samples.

Results

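GABA and glycine signalling was followed through 27 genes that make, load, clear, bind or respond to the 2 fast inhibitory transmitters of the retina. They were taken by name from a fixed list of synthesis, transport, receptor, scaffold and chloride transporter genes, which was drawn up with earlier results of these data known. All 27 were among the 53280 genes of the count table, and 26 of them were among the 21150 genes with enough counts to be tested. Glra4, which encodes a glycine receptor alpha subunit, was the member left untested, with between 0 and 10 counts in a knockout pool and between 1 and 13 counts in a wildtype pool.

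The tissue was neural retina of mouse pups at postnatal day 4, either homozygous for loss of Opn4 (Opn4KO, 5 pools) or wildtype (Opn4WT, 4 pools). Opn4 encodes melanopsin, the photopigment of intrinsically photosensitive ganglion cells. Each pool held 4 retinas from 2 animals of 1 genotype, taken from litters of heterozygous parents kept in standard lighting of about 300 lux, and tissue was collected between zeitgeber hours 6 and 7. The labels name no sex, litter, strain or deleted part of Opn4, and since the allele is inherited, the loss is not restricted to 1 retinal cell type. RNA was sequenced as 1 polyA library a pool.

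GABA is made from glutamate by 2 decarboxylases, loaded into vesicles together with glycine by a shared vesicular transporter, and cleared by membrane transporters. Both transmitters open chloride channels, so the direction of their effect depends on the chloride that the importer NKCC1 and the exporter KCC2 set inside the cell. In the retina GABA and glycine are used mainly by amacrine cells and, for GABA, also by horizontal cells, and in newborn neurons both can depolarise before KCC2 matures.

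Opn4 itself checked the genotype labels. It stood at 1.07, 1.82, 1.153, 1.42 and 1.35 CPM (counts scaled to library size, with TMM factors) in knockout pools 1 to 5, against 11.8, 11.4, 12.03 and 11.6 CPM in wildtype pools 1 to 4. Libraries held 65.5 M to 86.1 M counts (M, mega), and the 27 genes together took 0.187 to 0.1998% of them in knockout pools and 0.181 to 0.190% in wildtype pools. Knockout pools 1 and 2 stood apart by lens transcripts, with a sum over 8 lens markers of 14.4 and 12.7 CPM where the other 3 knockout pools held 5.63 to 7.07 CPM and wildtype pools 5.07 to 5.77 CPM. Progenitor and cell cycle markers fell in knockout, 8 of 8, with a sum of 1527 to 1967 CPM in knockout pools and 2517 to 2655 CPM in wildtype pools. Knockout pools 1 and 2 held the lowest of these sums, 1527 and 1532 CPM, where the other 3 knockout pools held 1825 to 1967 CPM. Markers of rods (5 of 7) and bipolar cells (5 of 7) rose, with sums of 2278 to 3093 and 357 to 405 CPM in knockout pools against 1987 to 2166 and 309 to 324 CPM in wildtype pools. The rod sum was 3093 and 3062 CPM in knockout pools 1 and 2 and 2278 to 2532 CPM in the other 3 knockout pools. The bipolar sum was 377 and 405 CPM in knockout pools 1 and 2 and 357 to 370 CPM in the other 3. Pools 1 and 2 thus differed in more than lens transcripts, and which difference matters for other genes was not tested. Red blood cell markers fell, 5 of 5, with a sum of 73.7 to 99.3 CPM in knockout pools and 110 to 335 CPM in wildtype pools. Of 6 markers of Müller glia, Rlbp1 (log2 fold change 0.38) and Car14 (0.70) rose and Dapl1 (−0.56) fell, with a sum of 696 to 825 CPM in knockout pools and 708 to 739 CPM in wildtype pools. In these whole retinas fewer cells of a type and less RNA per cell cannot be told apart.

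The decarboxylase genes Gad2 and Gad1 gave different results, and their promoters are printed because the results turn on this pair. Both genes lie on the forward strand of chromosome 2 (GRCm38), Gad2 at chr2:22622205-22693874 and Gad1 at chr2:70553072-70602014. Each window is RefSeq's, on GRCm38.p6, and runs from 250 bases before a start of transcription annotated there to 50 bases after it. The Gad1 window lies inside the gene span given above, downstream of where that span begins. The Gad2 window begins before the Gad2 span, but the start of transcription used for it lies inside that span. Gad1 has 8 transcript rows and Gad2 has 2, and other possible starts of either gene are not covered. Capitals mark CANNTG, the 6-base E-box that basic helix-loop-helix factors can bind.
Gad2 promoter, chr2:22622077-22622376, forward strand: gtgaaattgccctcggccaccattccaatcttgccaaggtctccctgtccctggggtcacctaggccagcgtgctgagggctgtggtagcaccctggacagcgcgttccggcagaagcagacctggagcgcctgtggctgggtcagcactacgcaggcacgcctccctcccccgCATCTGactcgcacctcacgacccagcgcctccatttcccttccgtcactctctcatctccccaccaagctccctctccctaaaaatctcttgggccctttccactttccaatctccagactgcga
Gad1 promoter, chr2:70561879-70562178, forward strand: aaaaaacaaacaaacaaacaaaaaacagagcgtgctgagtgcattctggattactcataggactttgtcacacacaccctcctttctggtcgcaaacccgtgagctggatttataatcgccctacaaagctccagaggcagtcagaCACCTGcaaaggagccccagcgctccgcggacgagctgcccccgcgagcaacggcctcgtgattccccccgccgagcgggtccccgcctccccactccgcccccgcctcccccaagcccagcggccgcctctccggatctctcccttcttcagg
Each window held 1 CANNTG, a pattern that matches on both strands at once, beginning 76 bases before the start used in Gad2 and 104 bases before that in Gad1. Both of these sites lie inside the gene spans given above. The Gad1 window also held 1 TATAAA, on the reverse strand 141 bases before the start, and 1 GGGCGG, on the reverse strand 8 bases before it, whereas the Gad2 window held neither of these on either strand. Of the 32851 promoter windows of the same length, 72.3% held CANNTG, 13.6% TATAAA and 35.7% GGGCGG on either strand. Of the 27 genes, 24 had a promoter in the table, with 34 windows in all, of which 18 held CANNTG. These are matches of letters, and nothing about the binding of a factor was measured.

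Of the 26 genes tested, 1 fell in knockout retina and 0 rose, at an adjusted p under 0.05 by edgeR's quasi-likelihood test. That is 3.85% of the set, where 3.59% of all genes tested were called (1.34% higher and 2.25% lower), so the share called was close to the background. The gene that fell was Gad2. Without knockout pools 1 and 2 together edgeR called 0 of the set, with Gad2 at an adjusted p of 0.0659, and DESeq2 on all pools called 5, where it called 8.70% of the 17093 genes it tested. At an unadjusted p under 0.05 the set held 9 genes with a positive difference and 1 with a negative one, together 38.5%, where over all genes the share was 16.5%, with 8.60% positive. For 7 of the 26 genes the knockout pools lay wholly apart from the wildtype pools, above them in 6 and below them in 1. Over all genes the groups did not overlap for 8.29%, in 3.92% with knockout above and in 4.37% with knockout below. Restricted to the 15745 genes with a mean of at least 1 CPM, the share at an unadjusted p under 0.05 was 20.3% and the share without overlap 10.4%.

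The log2 fold change, knockout minus wildtype throughout, was positive for 23 of the 26 genes, with a median of 0.10, where 50.4% of all genes were positive and their median was 0.00. The 3 negative values belonged to Gad2, Glra1 and Gabbr1. By size the differences were small, from −0.30 for Glra1 to 0.42 for Gabrg1, and the median standard error was 0.07. The marker lists given above moved in the same pools, and their part in these values was not tested.

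**Figure D1:**
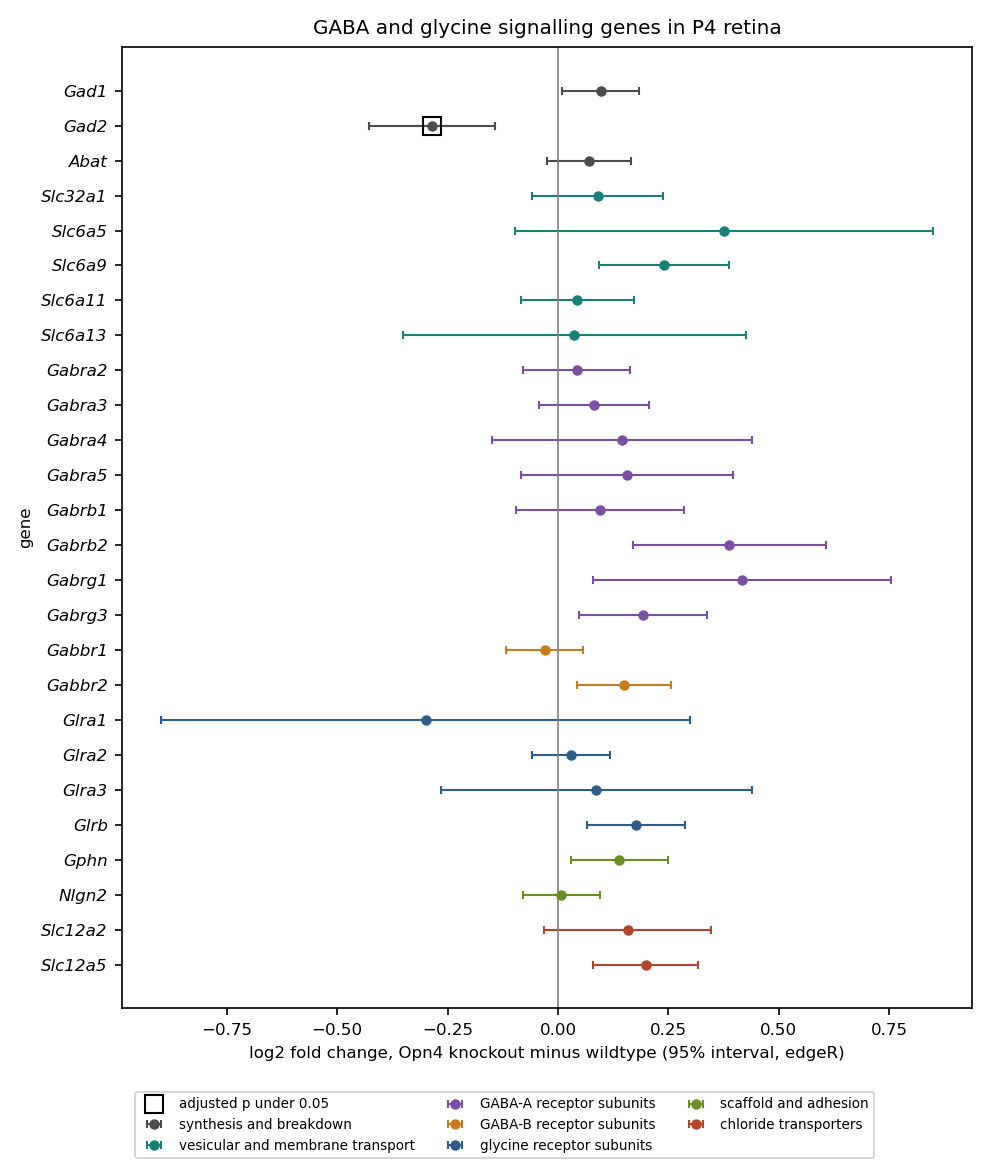
Log2 fold change of the 26 tested genes, knockout minus wildtype, with 95% intervals from edgeR, coloured by role; the square marks an adjusted p under 0.05. Gad2 at −0.29 is the single marked gene, and 23 of the 26 points lie right of 0.

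Per unit of transcript length, the set spanned about 3 orders of magnitude. Values of TPM (transcript abundance scaled for length, here summed over the transcripts of a gene) averaged 161 in knockout and 171 in wildtype pools for Gabbr1, the GABA-B receptor subunit that binds GABA. Gad1, Nlgn2 and Slc12a5 followed, at 91.6, 84.7 and 84.5 TPM in knockout pools and 89.8, 84.7 and 79.8 TPM in wildtype pools. Nlgn2 and Slc12a5 did not differ beyond their SDs (4.19 and 5.28 TPM in knockout, 5.40 and 8.003 TPM in wildtype). Gad1 lay above Nlgn2 by more than its SD of 5.37 TPM in knockout pools and by less than its SD of 5.90 TPM in wildtype pools. Slc6a9, Slc6a11, Slc32a1 and Abat came next, between 56.3 and 83.9 TPM in knockout pools and between 51.8 and 73.1 TPM in wildtype pools. At the low end stood Glra3, Glra1 and Glra4, with means of 1.33, 0.507 and 0.159 TPM in knockout pools and 1.26, 0.553 and 0.181 TPM in wildtype pools.

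**Figure D2:**
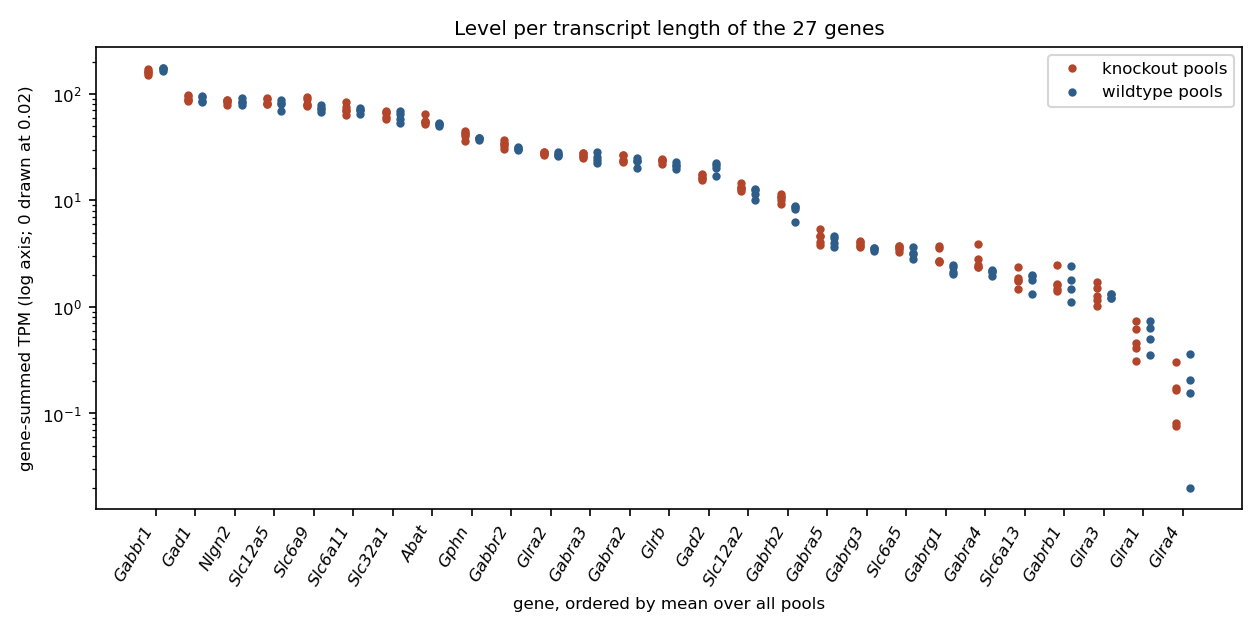
TPM of each of the 27 genes in every pool on a log axis, knockout pools left of wildtype pools, genes ordered by their mean over all 9 pools. Levels run from Gabbr1 (161 TPM in knockout, 171 TPM in wildtype) to Glra4 (0.159 TPM in knockout, 0.181 TPM in wildtype).

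Among the genes of synthesis and breakdown, Gad2 fell in knockout. Gad2 encodes GAD65, the decarboxylase associated with synaptic terminals. It measured 45.0, 45.1, 41.3, 40.2 and 46.5 CPM in knockout pools 1 to 5, against 51.5, 47.8, 54.3 and 59.1 CPM in wildtype pools 1 to 4. Every knockout pool lay below every wildtype pool, though the highest knockout pool and the lowest wildtype pool were close. The means were 43.6 ± 2.70 CPM in knockout (SD, n = 5) and 53.2 ± 4.77 CPM in wildtype (SD, n = 4), and edgeR gave a log2 fold change of −0.29 (SE 0.07, adjusted p = 0.0302), a change of −17.98% with a 95% interval from −25.7 to −9.44%. The call was lost without any 1 of knockout pools 2, 3 and 4 and wildtype pools 1, 3 and 4 (edgeR adjusted p = 0.0563 to 0.0991), although the log2 fold change lay between −0.34 and −0.24 whichever pool was left out.

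The same difference stood in the transcript table with a wider error. Gene-summed Gad2 averaged 16.6 ± 0.844 TPM in knockout pools and 20.3 ± 2.47 TPM in wildtype pools, with a log2 difference of −0.27 (limma adjusted p = 0.141). The more abundant of its 2 transcript rows averaged 12.4 ± 0.921 TPM in knockout pools and 15.3 ± 1.55 TPM in wildtype pools (limma unadjusted p = 0.0100, adjusted p = 0.335). The other row averaged 4.19 ± 1.38 TPM in knockout pools and 5.00 ± 1.97 TPM in wildtype pools, and its pools overlapped. In the authors' deposited table Gad2 had a log2 difference of −0.15 with a q of 0.811.

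Amacrine and horizontal cells are the main users of GABA in the retina. The few of their markers that passed edgeR's test moved in different directions, and most did not pass. Whether these markers are particular to 1 cell type at this age was not tested. Of 10 amacrine markers, 2 fell, Pax6 (log2 fold change −0.16) and Ptf1a (−0.79), both transcription factors of amacrine fate, and 0 rose. Tfap2a was at −0.19 and Tfap2b at −0.11 (edgeR unadjusted p = 0.00826 and 0.0366). Of the 10, 7 were negative and 3 positive. The sum of the 10 was 1777 to 1962 CPM in knockout pools and 1942 to 2046 CPM in wildtype pools, which overlapped. Of 6 horizontal cell markers, Calb1 (0.39), a calcium-binding protein, and Prox1 (0.31), a transcription factor, rose and 0 fell, while Onecut3, a transcription factor, was at −0.22 (edgeR unadjusted p = 0.0457). The sum was 209 to 229 CPM in knockout pools and 154 to 197 CPM in wildtype pools, and most of it was Prox1, at 138.5 to 157 CPM in knockout pools and 98.4 to 128.8 CPM in wildtype pools. Of 5 markers of starburst amacrine cells, a cholinergic and GABAergic type, none passed edgeR's test (2 at an unadjusted p under 0.05), and the sum was 159 to 183 CPM in knockout and 167 to 176 CPM in wildtype pools. None of the markers in these lists was at 0 in all pools. Their part in the level of Gad2 was not tested.

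Gad1, which encodes GAD67, the decarboxylase spread through the whole cell, did not pass the test. It measured 145.0, 148.4, 144.5, 145.7 and 156.9 CPM in knockout pools and 143.8, 133.4, 139.1 and 137.8 CPM in wildtype pools. The pools did not overlap, but the lowest knockout pool and the highest wildtype pool were nearly level. In edgeR's fit the log2 fold change came to 0.10 (SE 0.04, adjusted p = 0.249). Abat, the transaminase that breaks GABA down, ranged from 120.5 to 139.6 CPM in knockout pools and from 122.2 to 126.1 CPM in wildtype pools, with a log2 fold change of 0.07 (edgeR adjusted p = 0.479).

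Within a pool, Gad2 stood lower relative to Gad1 in knockout. The ratio of their CPM, which is not corrected for transcript length and is used only to compare pools, was 0.310, 0.304, 0.286, 0.276 and 0.296 in knockout pools, against 0.358, 0.359, 0.391 and 0.429 in wildtype pools. All knockout ratios lay below all wildtype ratios, and the gap between the groups was wider than the whole range among knockout pools. The mean ratio was 0.295 ± 0.0138 in knockout pools (SD, n = 5) and 0.384 ± 0.0337 in wildtype pools (SD, n = 4). The difference of the mean log2 ratio was −0.38 (exact two-sided permutation p = 0.00794, the smallest that these 9 pools can give; 0.0317 after adjustment over 4 ratios). From TPM in place of counts it was −0.31, with the same exact permutation p. This ratio shares its Gad2 values with the result above and is not a second line of evidence for it.

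The other 3 ratios did not pass the same exact permutation test, and the pools of both genotypes overlapped in each. Slc12a5 to Slc12a2, the chloride exporter over the importer, averaged 4.15 ± 0.171 in knockout pools and 4.07 ± 0.429 in wildtype pools, with a log2 difference of 0.03 (exact permutation p = 0.635). Glra1 to Glra2, a pair of glycine receptor alpha subunits, averaged 0.0109 ± 0.00167 in knockout pools and 0.0137 ± 0.00466 in wildtype pools. The log2 difference of this ratio was −0.29 (exact permutation p = 0.302). Gabra4 to Gabra2, a pair of GABA-A alpha subunits, averaged 0.0749 ± 0.0139 in knockout pools and 0.0697 ± 0.00148 in wildtype pools, with a log2 difference of 0.08 (exact permutation p = 0.548). With TPM the log2 difference of the chloride transporter ratio was −0.08 instead (exact permutation p = 0.0952), so its direction was not settled by these data.

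**Figure D3:**
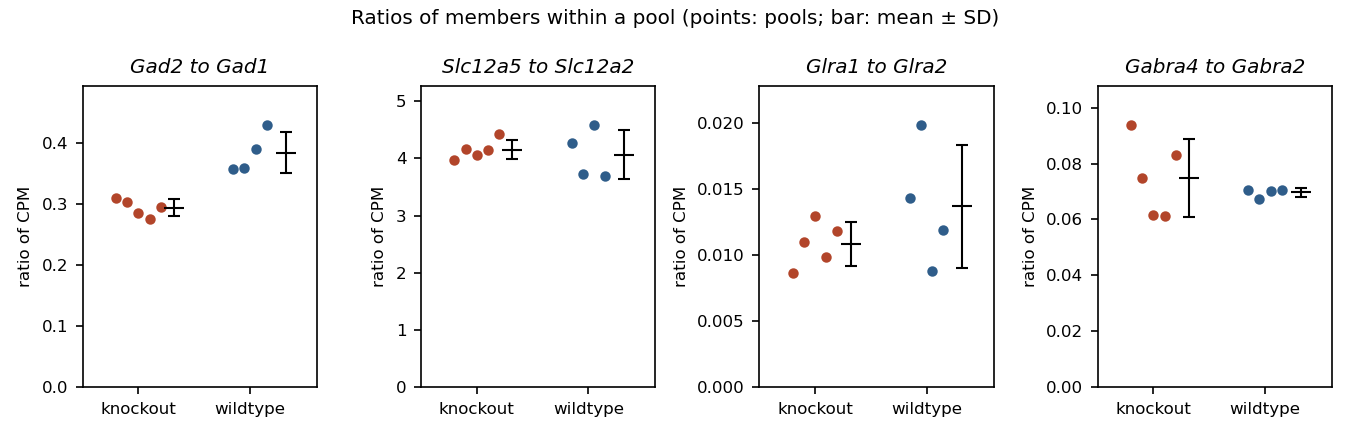
Ratio of CPM within each pool for 4 pairs of genes, knockout pools left and wildtype pools right, with mean ± SD. Only the Gad2 to Gad1 ratio separates the genotypes, at 0.276 to 0.310 in knockout pools and 0.358 to 0.429 in wildtype pools.

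Of the 5 transporters of GABA and glycine, none passed edgeR's adjusted threshold, and 1, Slc6a9, had an unadjusted p under 0.05. Slc6a9 encodes GlyT1, which glycinergic amacrine cells and glia use to take up glycine. It measured 135.7, 134.8, 111.6, 111.2 and 114.3 CPM in knockout pools, against 103.0, 107.8, 96.8 and 104.2 CPM in wildtype pools. The groups did not overlap, and knockout pools 1 and 2 stood well above the other 3. Those 2 pools also had the highest lens and rod sums and the lowest progenitor sums. EdgeR put the log2 fold change at 0.24 (SE 0.07, adjusted p = 0.0776), and without knockout pools 1 and 2 it was 0.12 (edgeR adjusted p = 0.228). DESeq2 on all pools called it (adjusted p = 0.0133). Exons of Ccdc24 on the opposite strand cover 27.8% of the exonic bases of Slc6a9, and the sources used here do not say whether counting used strand.

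Slc6a11, which encodes the GABA transporter GAT3, measured 157.6, 167.0, 167.5, 183.2 and 196.6 CPM in knockout pools, against 171.8, 161.4, 172.4 and 170.9 CPM in wildtype pools. The knockout pools spread on both sides of the wildtype pools, and edgeR gave a log2 fold change of 0.04 (SE 0.06, adjusted p = 0.786). Slc32a1, the vesicular transporter VGAT that loads both transmitters, ranged from 92.5 to 106.8 CPM in knockout pools and from 81.6 to 103.8 CPM in wildtype pools (log2 fold change 0.09, edgeR adjusted p = 0.582). An antisense transcript, Gm14205, covers 24.9% of its exonic bases but had 577 counts over all pools, against 68463 for Slc32a1.

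Slc6a5, which encodes GlyT2, the neuronal glycine transporter, had a wide error and 1 library that stood apart. Its knockout pools held 12.6 to 13.7 CPM, and its wildtype pools 12.5, 4.55, 10.2 and 12.9 CPM. Wildtype pool 2 alone was low, and with all pools edgeR gave a log2 fold change of 0.38 (SE 0.22, adjusted p = 0.434), and without wildtype pool 2 it was 0.13. The transcript table did not show that low pool, since Slc6a5 in wildtype pools 1 to 4 was at 3.16, 3.65, 2.84 and 3.20 TPM. Slc6a13, the GABA transporter GAT2, was rare, at 1.64 to 2.77 CPM in knockout and 1.74 to 2.26 CPM in wildtype pools (log2 fold change 0.04, edgeR adjusted p = 0.950).

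All 8 GABA-A receptor subunits in the set had positive log2 fold changes, with a median of 0.15, and none passed edgeR's adjusted threshold. GABA-A receptors are chloride channels of 5 subunits, usually alpha, beta and gamma types together. Gabrb2, Gabrg1 and Gabrg3 had an unadjusted p under 0.05. Gabrb2, a beta subunit, measured 20.6, 22.8, 24.1, 23.8 and 24.7 CPM in knockout pools, against 19.6, 18.6, 13.6 and 19.1 CPM in wildtype pools. Every knockout pool lay above every wildtype pool, with wildtype pool 3 far below the rest. By edgeR the log2 fold change stood at 0.39 (SE 0.10, adjusted p = 0.0556), and the authors' deposited table gave 0.42 with a q of 0.0106. DESeq2, edgeR's robust fit and a filter at a mean of 1 CPM each called Gabrb2 (adjusted p = 0.00417, 0.0398 and 0.0443). It was not called with no filter, with the pool number as a block or from TPM (adjusted p = 0.116, 0.106 and 0.120), nor in 8 of 9 edgeR fits with 1 pool left out (adjusted p = 0.0613 to 0.110).

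Gabrg1, a gamma subunit, measured 8.04, 8.43, 6.77, 5.55 and 6.63 CPM in knockout pools, against 6.63, 5.38, 3.94 and 5.28 CPM in wildtype pools. The groups overlapped, since wildtype pool 1 was level with or above knockout pools 4 and 5. The fitted log2 fold change in edgeR was 0.42 (SE 0.16, adjusted p = 0.191), it was 0.25 without knockout pools 1 and 2 (edgeR adjusted p = 0.546), and the authors' deposited table gave 0.50 with a q of 0.0295. Gabrg3, another gamma subunit, measured 20.8, 18.2, 18.8, 18.5 and 17.4 CPM in knockout pools, against 17.3, 16.2, 15.7 and 16.3 CPM in wildtype pools. The groups touched without overlapping, and edgeR gave a log2 fold change of 0.19 (SE 0.07, adjusted p = 0.158).

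The 4 alpha subunits and Gabrb1 had log2 fold changes from 0.04 to 0.16, each with an edgeR adjusted p above 0.5. Gabra3, the most abundant of them per length, measured 52.7, 50.6, 53.2, 47.0 and 47.5 CPM in knockout pools and 49.4, 50.6, 45.2 and 44.5 CPM in wildtype pools. Gabra2, the next per length, measured 68.4, 69.8, 75.2, 70.8 and 78.0 CPM in knockout pools and 76.0, 68.5, 64.6 and 72.3 CPM in wildtype pools. Per length the 2 were close, Gabra3 at 26.6 ± 1.22 TPM in knockout and 25.2 ± 2.74 TPM in wildtype pools. Gabra2 was at 24.7 ± 1.85 and 23.1 ± 2.02 TPM, and it was the higher of the 2 in knockout pool 5 and wildtype pool 4. Both genes overlapped between the genotypes (log2 fold change 0.08 and 0.04, edgeR adjusted p = 0.536 and 0.779). Gabra4 and Gabra5 stood at 4.33 to 7.84 CPM in knockout pools and 4.54 to 6.68 CPM in wildtype pools, and Gabrb1 at 10.4 to 11.7 CPM in knockout pools and 9.10 to 11.8 CPM in wildtype pools.

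Several of the GABA-A subunit genes are neighbours in the genome, and the values can be read along them. On chromosome 5, Gabrg1 (log2 fold change 0.42), Gabra2 (0.04), Gabra4 (0.14) and Gabrb1 (0.10) lie side by side, and on chromosome 7 Gabrg3 (0.19) lies next to Gabra5 (0.16). On chromosome X, Gabra3 (0.08) lay between Gabre (−0.51) and Gabrq (−0.41). None of these 9 genes passed edgeR's adjusted test, and Gabrg1, Gabrg3 and Gabre had an unadjusted p under 0.05. None of the 27 genes lies on chromosome 14 with Opn4.

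The GABA-B receptor works through G proteins and needs both of its subunits. Gabbr1 measured 265, 262.8, 261.8, 283 and 283 CPM in knockout pools, against 279.9, 270.8, 279.9 and 276.8 CPM in wildtype pools. The groups overlapped, and edgeR gave a log2 fold change of −0.03 (SE 0.04, adjusted p = 0.781). Gabbr2, which couples the receptor to its G protein, measured 105.7, 111.3, 115.8, 115.4 and 123.0 CPM in knockout pools, against 105.9, 103.2, 96.6 and 106.5 CPM in wildtype pools. Only knockout pool 1 fell within the wildtype range, and edgeR gave a log2 fold change of 0.15 (SE 0.05, adjusted p = 0.133).

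Among glycine receptor subunits, Glra2 held 93.3 ± 0.802% of the alpha TPM in knockout pools and 93.2 ± 0.538% in wildtype pools. It measured 49.8, 50.6, 51.0, 52.8 and 51.3 CPM in knockout pools and 51.1, 49.5, 50.7 and 48.9 CPM in wildtype pools. The groups overlapped closely, with a log2 fold change of 0.03 and a 95% interval from −0.06 to 0.12 (edgeR adjusted p = 0.793). Glrb, the beta subunit that ties the receptor to gephyrin, measured 36.7, 38.8, 37.6, 38.3 and 38.5 CPM in knockout pools, against 34.9, 35.0, 33.1 and 31.3 CPM in wildtype pools. Its groups did not overlap, and edgeR gave a log2 fold change of 0.18 (SE 0.05, adjusted p = 0.0842), where DESeq2 gave an adjusted p of 0.0193.

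The other glycine alpha subunits were rare. Glra3 ranged from 3.32 to 5.80 CPM in knockout pools and from 4.03 to 4.66 CPM in wildtype pools, and knockout pools 1 and 2 were the highest of all 9. Over all pools edgeR gave 0.09 on the log2 scale (SE 0.16, adjusted p = 0.860), and −0.18 without those 2 pools (edgeR adjusted p = 0.627). Glra1 ranged from 0.431 to 0.661 CPM in knockout pools and from 0.446 to 0.981 CPM in wildtype pools, which is 33 to 52 counts a knockout pool and 37 to 72 counts a wildtype pool. Its log2 fold change of −0.30 had a 95% interval from −0.90 to 0.30 (edgeR adjusted p = 0.661). It was −0.08 without wildtype pool 2, the highest of its group, and −0.46 without wildtype pool 3, the lowest.

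Gphn and Nlgn2 hold inhibitory receptors at the synapse, gephyrin as the scaffold and neuroligin 2 as the adhesion protein. Gphn measured 67.9, 69.4, 69.2, 72.8 and 76.6 CPM in knockout pools, against 68.8, 64.7, 60.1 and 65.1 CPM in wildtype pools. Knockout pool 1 fell within the wildtype range, and edgeR gave a log2 fold change of 0.14 (SE 0.05, adjusted p = 0.177). Nlgn2 measured 215.8, 220.8, 204.5, 223.9 and 227.8 CPM in knockout pools and 219.7, 213.2, 220.1 and 216.5 CPM in wildtype pools. The knockout pools lay on both sides of the wildtype pools, and the log2 fold change was 0.01 with a 95% interval from −0.08 to 0.10 (edgeR adjusted p = 0.954).

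Of the chloride transporters, Slc12a5 encodes the exporter KCC2, whose rise in postnatal neurons is known to make GABA and glycine inhibitory. It measured 221.8, 212.6, 186.2, 194.5 and 196.3 CPM in knockout pools, against 185, 176.9, 166.3 and 177 CPM in wildtype pools. The groups did not overlap, though knockout pool 3 and wildtype pool 1 were nearly level and knockout pools 1 and 2 were the highest. In edgeR's fit the log2 fold change came to 0.20 (SE 0.05, adjusted p = 0.0710), and 0.12 without knockout pools 1 and 2 (edgeR adjusted p = 0.251). DESeq2 on all pools called it (adjusted p = 0.0113). In the transcript table it was 0.09 (limma adjusted p = 0.641), and its most abundant transcript row averaged 44.0 ± 2.01 TPM in knockout pools and 37.9 ± 2.17 TPM in wildtype pools (limma adjusted p = 0.241). Slc12a2, the importer NKCC1, ranged from 44.4 to 55.9 CPM in knockout pools and from 36.3 to 47.8 CPM in wildtype pools, with a log2 fold change of 0.16 (SE 0.09, edgeR adjusted p = 0.403). It was 0.06 without knockout pools 1 and 2 and 0.08 without wildtype pool 3.

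**Figure D4:**
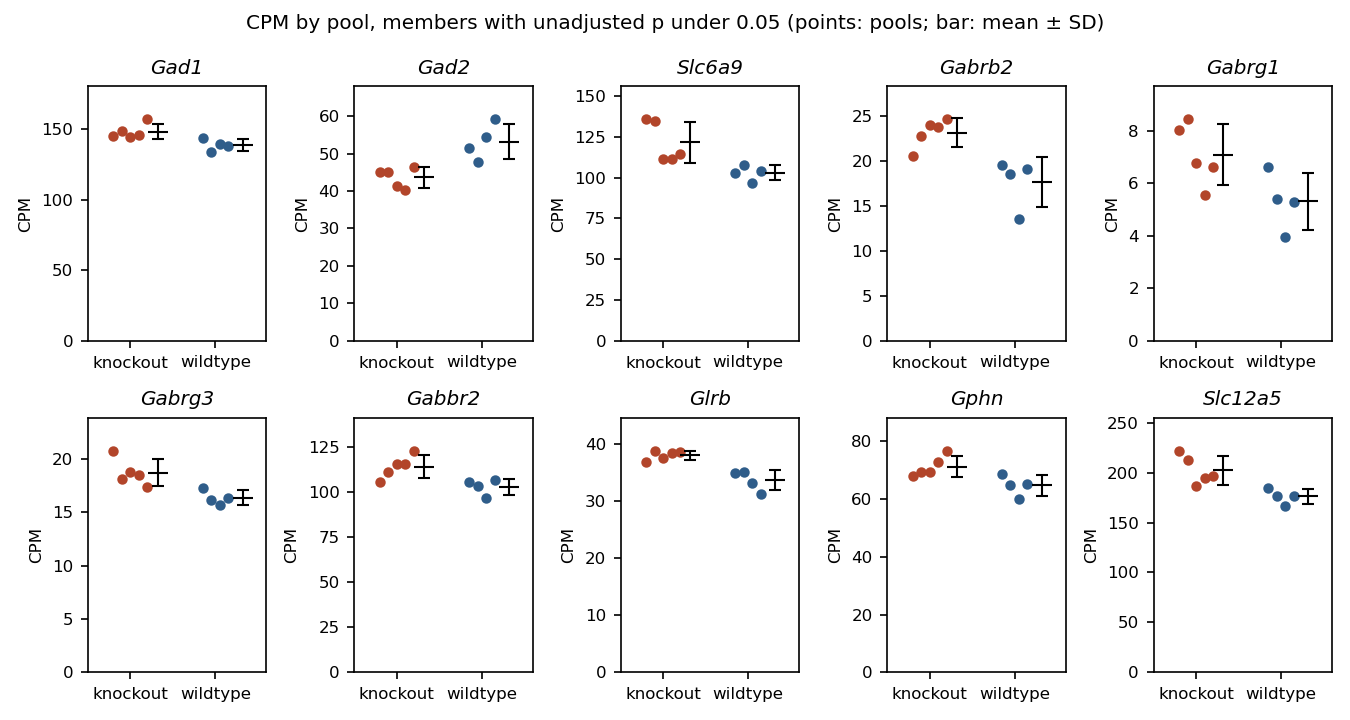
CPM in each pool for the 10 genes with an unadjusted p under 0.05, knockout pools left and wildtype pools right, with mean ± SD; each axis starts at 0. Gad2 is the single gene with its knockout pools below its wildtype pools (40.2 to 46.5 against 47.8 to 59.1 CPM).

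Of 35 other genes of the same pathways, 34 were found in the count table and 32 were tested. By edgeR 2 of them rose and 0 fell, which is 6.25% of those tested, where 3.59% of all genes were called and 1.34% were higher, and 1 of the 2 is described here. Gabrr3, a rho subunit of the GABA receptors that bipolar cells carry, measured 14.7, 17.1, 13.6, 12.4 and 10.5 CPM in knockout pools, against 4.78, 5.12, 3.95 and 5.34 CPM in wildtype pools. Every knockout pool lay well above every wildtype pool. The log2 fold change of Gabrr3 came to 1.51 (SE 0.14, edgeR adjusted p = 0.000113). The bipolar markers that moved with it are given above, and their part in its level was not tested.

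Of 119 transcript rows of the 27 genes, 63 from 25 genes had enough TPM to be tested, and 0 passed limma's adjusted threshold, where 0.178% of all 48214 rows did. At an unadjusted p under 0.05, 11 of these rows and 4455 of all rows were counted. Summed per gene, 0 of the 25 genes tested passed, where 2.16% of all 15295 genes did, and by edgeR on counts 1 gene passed. The authors' deposited table listed 26 of the 27 genes, 22 of them with a positive difference, and 2 (Gabrb2 and Gabrg1) had a q under 0.05, where 1.46% of its 17433 genes did. Across these tests Gad2 passed from counts with edgeR, and Gabrb2 and Gabrg1 passed in the authors' deposited table.

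**Figure D5:**
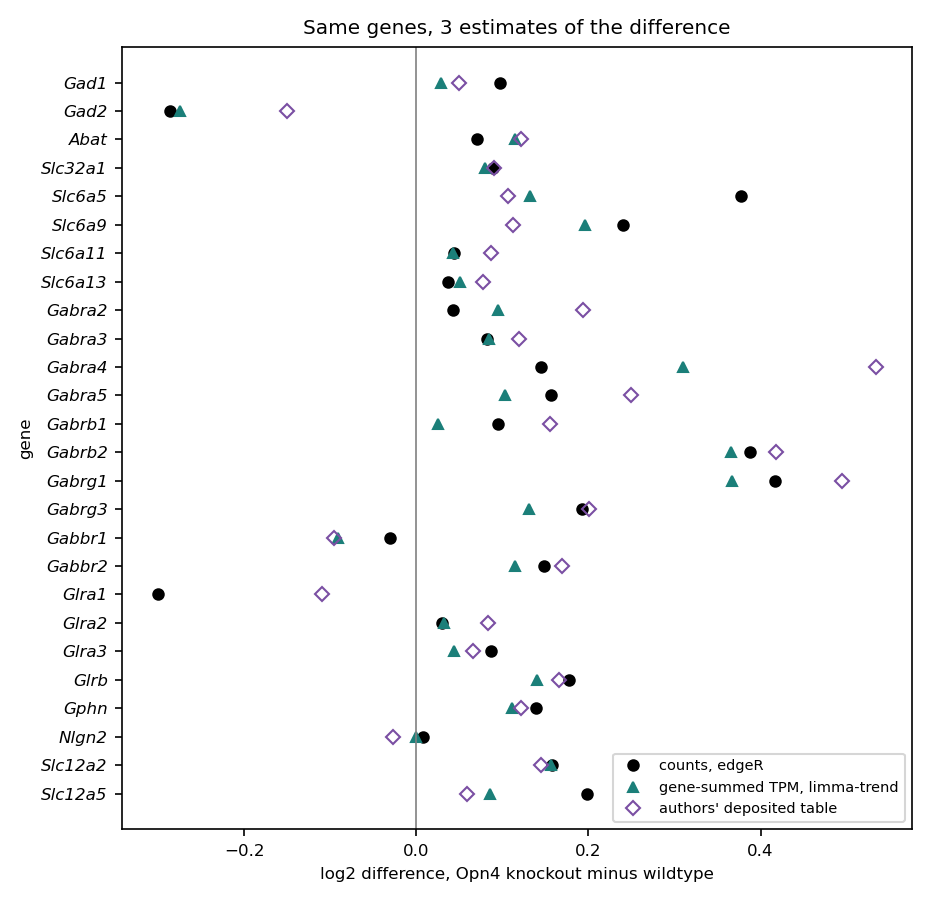
Log2 difference of each gene, knockout minus wildtype, from counts with edgeR, from gene-summed TPM with limma, and from the authors' deposited table. Gad2 is negative in all 3 at −0.29, −0.27 and −0.15, and Gabrb2 positive in all 3 at 0.39, 0.37 and 0.42.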

How the data were processed

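PolyA RNA of 5 knockout and 4 wildtype retina pools was analysed from 3 deposited tables. The counts per gene were deposited by the authors unnormalised, and the sources used here do not name their counter. TPM per transcript, a length-scaled signal, came from kallisto 0.46.1 on GRCm38 after Trimmomatic 0.39, per the submitters' processing notes. The deposited columns of this signal sum to between 953963 and 1083977, so the authors rescaled them in a way not described. The third table, from sleuth 0.30.8, holds q-values and p-values, per the file headers. Its deposited effect is on the natural log scale. It was converted here to log2, knockout minus wildtype, after its sign was read from Opn4. Its variance columns were not used.

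Counts were tested with edgeR 4.0.16 in R 4.3.3 (filterByExpr, TMM, quasi-likelihood F test, genotype alone, two-sided, Benjamini-Hochberg over 21150 genes, threshold 0.05). Standard errors are the absolute log2 fold change over the square root of F. Transcript rows and gene sums that reached a TPM of 1 in 4 or more pools were tested on log2(TPM + 0.5) with limma 3.58.1 (trend). That scale understates changes of low genes. Rows without a symbol (1673) or with digits alone (188) were left out. Ratios within a pool were tested by exact two-sided permutation over all groupings of the pools. Both models were checked on simulated data. Gene positions came from GENCODE, and near-identical transcripts of other genes were searched with BLAST 2.17.0 on both strands. Of the 4 found, Gm12236 for Glra1, Gm14205 for Slc32a1 and Gm17114 for Slc6a9 overlap exons of that gene on the opposite strand. Those matches are to the same locus and are not separate copies, and they had 0, 577 and 208 counts over all pools. Gm25735 for Gad2 had 0 counts over all pools.

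The pools of a genotype came from separate animals, with 65.5 M to 86.1 M counts each (M, mega). The genes, the other pathway list and the markers were chosen with earlier results of these data known. Every one of the 27 genes is named, and of the other lists those past the adjusted threshold, except that some results of the pathway list are not reported here. Per-pool values are given for genes past it, for those at an unadjusted p under 0.05 and for the most abundant gene of each role. The alternatives were DESeq2 1.42.0, other scaling and filters, a robust fit, the pool number as a block, TPM in place of counts, and pools left out.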

Additional observations from a re-analysis of the deposited data

Results flagged for a closer look

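In 60 sets of values (26 genes and 4 ratios in each genotype), the highest or lowest pool was compared with its nearest neighbour in the same genotype. In 3 sets that pool stood further out than Dixon's 95% limit allows, and chance alone sets apart about 1 in 20 sets. Slc6a11, the GABA transporter GAT3, was at 161.4 CPM in wildtype pool 2, below the 170.9 to 172.4 CPM of the other wildtype pools. Gabrb2 was at 13.6 CPM in wildtype pool 3, below the 18.6 to 19.6 CPM of the others, and without this pool its log2 fold change was the lowest of those with 1 pool left out, at 0.28. The ratio of Gabra4 to Gabra2 was 0.0674 in wildtype pool 2, below the 0.07035 to 0.07041 of the other wildtype pools.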

How the results depend on the processing

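The count of genes called in the set was 1 with DESeq2's size factors in edgeR, 5 with DESeq2's own test (Gad2 lower; Gabrb2, Glrb, Slc12a5 and Slc6a9 higher), 0 with no filter on low counts, 2 at a mean of at least 1 CPM and 2 with a robust fit (Gad2 and Gabrb2 in both), 0 from gene-summed TPM, 0 without knockout pools 1 and 2, and 0 to 2 with 1 pool left out. Over all genes 1487 were called by DESeq2 (8.70% of 17093), 486 without knockout pools 1 and 2, 549 with no filter, and 524 to 859 with 1 pool left out. The other pathway genes called stayed at 2 in edgeR under every setting run for them, and DESeq2 called 3. Gad2 was negative in every setting run, and its adjusted p was 0.0570 with no filter, 0.141 from TPM and 0.0659 without knockout pools 1 and 2. No transcript row of the 27 genes was called in any setting run.

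The pool numbers do not pair the samples: same-numbered pools had correlations of their deviations of 0.01, 0.01, 0.06 and −0.04. With the replicate block 2 genes were called (Slc12a5 and Slc6a9, adjusted p = 0.0302 and 0.0317), Gad2 was at −0.31 (adjusted p = 0.0600), and 888 of all genes were called.

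The log2 fold change changed sign for 4 genes near 0, and the cause was not tested. Nlgn2 was at −0.0011 with no filter, −0.0082 with the block, −0.00058 from TPM, and −0.010 to 0.028 with 1 pool left out. Slc6a11 was at −0.0042 with the block and −0.0054 to 0.078 with 1 pool left out. Slc6a13 was at −0.027 and Glra3 at −0.18 without knockout pools 1 and 2, and they ranged from −0.088 to 0.11 and from −0.019 to 0.18 with 1 pool left out.

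The log2 ratio of Gad2 to Gad1 was −0.42 without knockout pools 1 and 2 and −0.41 to −0.33 with 1 pool left out. Its exact permutation p was then 0.0179 or 0.0286, each the smallest the design allows (adjusted 0.0714 or 0.114), so these settings could not reach the threshold. The ratio of Slc12a5 to Slc12a2 was −0.076 from TPM and −0.0088 to 0.094 with 1 pool left out, and that of Gabra4 to Gabra2 was −0.036 without knockout pools 1 and 2 and −0.00077 to 0.15 with 1 pool left out.

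Glra1 had at most 72 counts in a pool and Glra4 at most 13.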
